A study of Homo sapiens with 14 samples.

Results

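HSF2 binding after heat was compared between mitotic and cycling K562 cells, from all peaks of the heat-treated mitotic HSF2 list (8270 peaks) and all peaks of the heat-treated cycling HSF2 list (4315 peaks). Together these make 12585 of the 117699 peaks in the 12 antibody lists of the study. No peak was left out for its fold or p-value, and peaks that overlapped a peak of non-specific antibody (IgG) from heat-treated cells of the same state were counted apart. K562 is a human erythroleukemia line. The mitotic cells were arrested in mitosis and heated for 30 min at 42 °C, the cycling cells were unsynchronised and heated in the same way, and both had been grown at 37 °C. The agent used for the arrest is not given in the labels. Each library was made from 10 pooled immunoprecipitations of sonicated, formaldehyde-fixed chromatin. There is 1 library per group, so no difference between the cell states has a replicate check and no test of a condition was possible. The comparisons below describe these libraries.

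Heat shock factors are transcription factors that assemble into trimers and bind heat shock elements, which are inverted repeats of the letters GAA. HSF1 is the main activator of chaperone genes under heat. HSF2 binds the same element, can form mixed trimers with HSF1, and has been studied for its presence at heat shock genes in mitosis, when chromosomes are condensed and many transcription factors leave the DNA.

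The promoters of several genes well known as heat shock factor targets hold the letters of the element. They are printed because HSF2 peaks at the regions known to hold these genes are described at the end of the results. The sequences are RefSeq promoter windows of build GRCh38.p14, 5′ to 3′ on the gene's strand, with the letters GAANNTTC or TTCNNGAA in capitals. Each of these motifs reads the same on both strands, and where copies overlap the capitals run on. The first lines give the 250 bases before the start of HSPA1A, which encodes the heat-inducible HSP70, and of HSPA8, which encodes its constitutive relative.
HSPA1A: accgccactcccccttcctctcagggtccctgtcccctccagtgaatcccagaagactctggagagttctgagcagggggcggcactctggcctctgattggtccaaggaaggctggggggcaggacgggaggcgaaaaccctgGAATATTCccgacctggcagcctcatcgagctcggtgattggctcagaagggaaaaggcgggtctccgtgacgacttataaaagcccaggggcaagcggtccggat
HSPA8: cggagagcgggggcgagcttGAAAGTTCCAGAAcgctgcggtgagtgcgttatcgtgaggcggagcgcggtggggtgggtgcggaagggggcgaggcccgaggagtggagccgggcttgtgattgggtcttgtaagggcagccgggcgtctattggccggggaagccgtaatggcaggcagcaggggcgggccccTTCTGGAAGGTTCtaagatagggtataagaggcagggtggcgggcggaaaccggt

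The next lines give the 30 bases that hold the most letters of the motif in the windows of 7 other genes, to set the elements side by side.
HSPA6: gcggaaaggTTCGCGAAAGTTCgcggcggc
HSPD1: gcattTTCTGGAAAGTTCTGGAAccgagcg
HSP90AA1: tcTTCCGGAAGGTTCgggaggcTTCTGGAA
HSP90AB1: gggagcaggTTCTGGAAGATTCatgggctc
DNAJB1: gcgggcggggcgGAAGGTTCtggagggggc
DNAJB6: aagagccgaGAACCTTCGCGAAggtggggc
SERPINH1: tttccaactTTCCAGAAGTTTCtcgggacg

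Of 20 genes with an entry in the promoter table, 14 had GAANNTTC or TTCNNGAA in at least 1 listed window, 6 had neither, and 7 had 3 repeats in a row (GAANNTTCNNGAA or TTCNNGAANNTTC, which contain the shorter motifs). Over all 35116 promoter windows of 300 bases the shares were 13.5% and 0.490%, counted per window, while some of the genes have several windows. These counts describe the letters of chosen genes and were not tested.

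The mitotic HSF2 library had 28299989 kept tags and the cycling one 19476014. The mitotic IgG library had 17981369 kept tags and a list of 41184 peaks that covers 30.9 Mb, against 14567365 kept tags and 4377 peaks over 4.21 Mb for cycling IgG. The mitotic HSF2 peaks covered 8.24 Mb and the cycling HSF2 peaks 4.13 Mb. The duplicate step left out 9.64% of mitotic HSF2 tags, and 1 tag of the cycling library, and the tag files named in the headers follow different naming in the 2 states. Cell state, the processing of the tags and the input library therefore cannot be told apart. Peaks held 1.25% of the kept tags in the mitotic HSF2 library and 0.893% in the cycling one.

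The lists are described by the authors' score and fold and by tags. Mitotic peaks had a median score, 10 times the negative log10 of the p-value as the authors give it, of 59.7, against 74.3 in the cycling list, and both lists start at a score of 50. A fold over input of at least 5 was reached by 613 mitotic peaks (7.41%), against 909 cycling peaks (21.1%), and a fold of at least 10 by 10 mitotic and 156 cycling peaks. The median peak held 21 tags in the mitotic list and 20 in the cycling list, which is 0.742 and 1.03 tags per 1000000 kept tags (CPM). Score and fold are the authors' values and are not scaled for depth, so they are used here to order peaks within a list, and no difference in binding is read from them between the lists.

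Few HSF2 peaks were found in both states. Of the 8270 mitotic peaks, 629 (7.61%) overlapped a cycling HSF2 peak by at least 1 bp, and of the 4315 cycling peaks, 645 (14.9%) overlapped a mitotic one. IgG of the same state had a peak at 2998 mitotic HSF2 peaks (36.3%) and at 522 cycling HSF2 peaks (12.1%). The share with a counterpart was higher among these. With an IgG peak, 412 of 2998 mitotic peaks (13.7%) and 253 of 522 cycling peaks (48.5%) had a counterpart in the other state. Without one, 217 of 5272 mitotic peaks (4.12%, 95% Wilson interval 3.61 to 4.69) and 392 of 3793 cycling peaks (10.3%, 9.41 to 11.3) had a counterpart. Intervals and floors here cover counting error only.

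**Figure D1:**
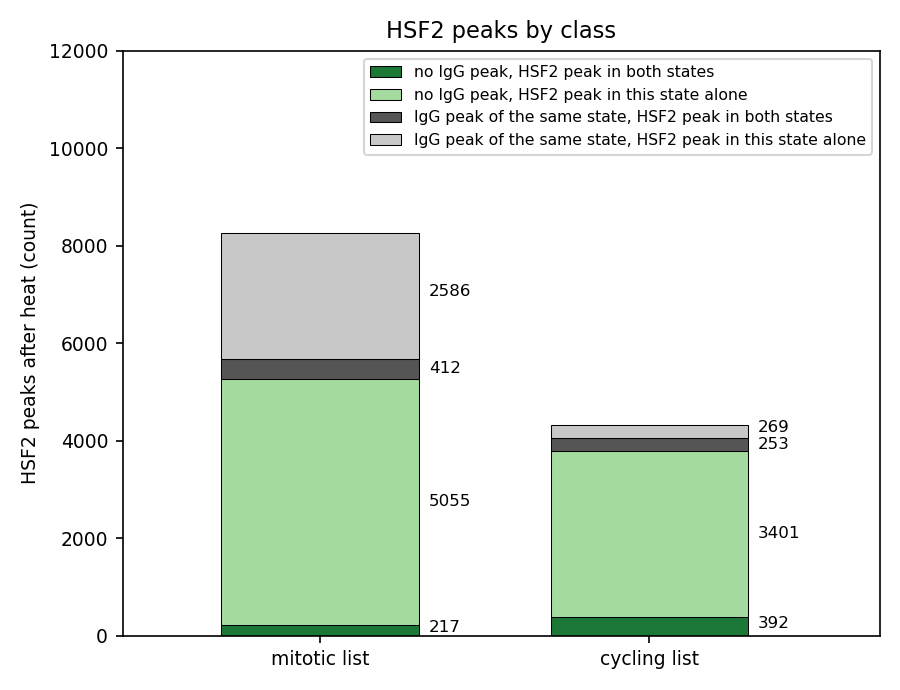
Number of HSF2 peaks after heat (vertical axis, count) in the mitotic list and the cycling list, stacked by whether an IgG peak of the same state overlaps and whether the other state has an overlapping HSF2 peak. The dark green segments, 217 mitotic and 392 cycling peaks, are the shared peaks with no IgG peak of the same state.

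IgG of the other state gives a background for these shares. At the 5272 mitotic HSF2 peaks with no mitotic IgG peak, the cycling IgG list had a peak at 61 (1.16%, 0.902 to 1.48), below the 4.12% with a cycling HSF2 peak. At the 3793 cycling HSF2 peaks with no cycling IgG peak, the mitotic IgG list had a peak at 591 (15.6%, 14.5 to 16.8), above the 10.3% with a mitotic HSF2 peak. The IgG lists differ 41184 to 4377 in length, in the same order. Peaks free of IgG in both states gave 201 of 5211 mitotic peaks (3.86%, 3.37 to 4.41) and 207 of 3202 cycling peaks (6.46%, 5.66 to 7.37) with a counterpart. All but a few pairings were of 1 peak with 1 peak: 3 of the 217 mitotic and 7 of the 392 cycling peaks overlapped several peaks of the other list.

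HSF1 in the same 2 states is given for comparison, from libraries of 7385467 mitotic and 16735990 cycling kept tags. Without IgG of the same state, 427 of 2504 mitotic HSF1 peaks (17.1%, 15.6 to 18.6) had a cycling HSF1 peak, and 594 of 5694 cycling HSF1 peaks (10.4%, 9.66 to 11.3) had a mitotic one. The IgG lists themselves overlapped by 1111 of 41184 mitotic peaks (2.70%) and 1206 of 4377 cycling peaks (27.6%).

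The share with a counterpart was highest among the strongest peaks of each list. Each list was ranked by score and split into 8 groups of equal size. In the mitotic list the highest group had scores of at least 97.4, and 33 of its 210 peaks without mitotic IgG (15.7%, 11.4 to 21.2) had a cycling HSF2 peak, against 11 (5.24%) with a cycling IgG peak. In the lowest mitotic group the share was 20 of 821 (2.44%, 1.58 to 3.73). Most high-scoring mitotic peaks overlapped mitotic IgG: 824 of 1034 (79.7%) in the highest group and 212 of 1033 (20.5%) in the lowest.

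In the cycling list the highest group had scores of at least 193, and 136 of its 447 peaks without cycling IgG (30.4%, 26.3 to 34.8) had a mitotic HSF2 peak, against 80 (17.9%) with a mitotic IgG peak. In the next group the share with mitotic HSF2 was 51 of 463 (11.02%, 8.48 to 14.2), below the 90 of 463 (19.4%) with mitotic IgG. The lower 6 groups lay between 5.16% and 9.96% for mitotic HSF2 and between 12.9% and 16.6% for mitotic IgG. With summits within 100 bp the order of the groups was steeper, with 93 of 447 peaks (20.8%) in the highest cycling group and 4 of 476 (0.840%) in the lowest.

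**Figure D2:**
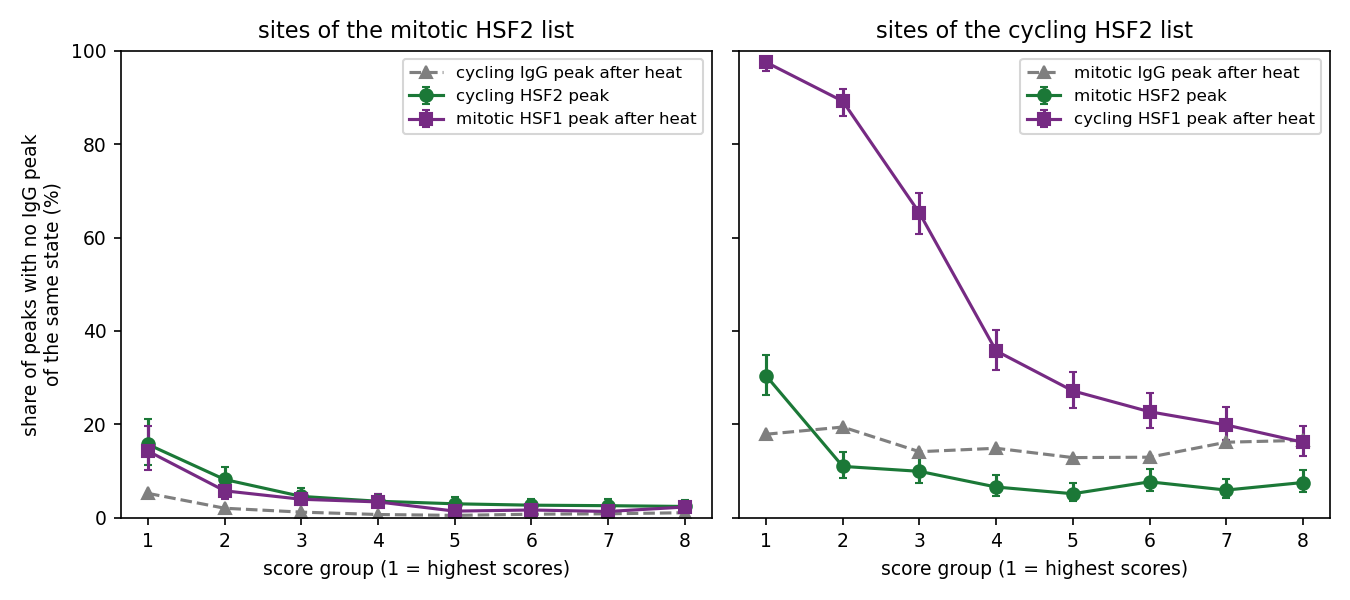
Share of HSF2 peaks with no IgG peak of the same state (vertical axis, %) that overlap an HSF2 peak of the other state, an HSF1 peak of the same state after heat or an IgG peak of the other state, in 8 groups by score (1 is the highest), with sites from the mitotic list on the left and from the cycling list on the right. Bars on the HSF2 and HSF1 points are 95% Wilson intervals. The HSF1 share of cycling peaks runs between 97.5% in group 1 and 16.2% in group 8, while in the mitotic list it stays at or below 14.3%. The mitotic HSF1 library had 7385467 kept tags and the cycling one 16735990, and the cause of this contrast was not tested.

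By the authors' fold the same order appeared at the top of the cycling list. Of the 16 cycling peaks without cycling IgG and with a fold of at least 20, 15 (93.8%, 71.7 to 98.9) had a mitotic HSF2 peak, 14 of them with summits within 100 bp, and 3 overlapped mitotic IgG. At folds of 10 to 20 it was 60 of 134 (44.8%, 36.6 to 53.2), at folds of 5 to 10 it was 97 of 717 (13.5%, 11.2 to 16.2), and below 5 it was 220 of 2926 (7.52%, 6.62 to 8.53). The mitotic list had 3 peaks without mitotic IgG at a fold of 10 or more, and 2 of them had a cycling peak. The exception was chr1:221229070-221230129, described further on.

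Summits of shared peaks lay close together, but pairs were chosen by overlap, so peak width limits the distance. Shared peaks without IgG of the same state had a median width of 751 bp (mitotic) and 947.5 bp (cycling). With IgG, the medians were 1579 bp at shared and 841.5 bp at unshared mitotic peaks, and 1372 and 1126 bp at cycling ones. The distances to HSF2 and to IgG are therefore not compared at equal width. For the 217 mitotic peaks without mitotic IgG, the median distance to the cycling summit was 95 bp (quartiles 38 and 230), and 112 (51.6%) lay within 100 bp. For the 392 cycling peaks without cycling IgG, the median distance to the mitotic summit was 126 bp (quartiles 38 and 438), and 175 (44.6%) lay within 100 bp. Distances to IgG of the same state, at peaks that overlap it, had a median of 268 bp in the mitotic list (793 of 2998, 26.5%, within 100 bp) and 200 bp in the cycling list (195 of 522, 37.4%). Within 50 bp the cycling shares were alike, 28.6% for mitotic HSF2 and 28.4% for cycling IgG. Among shared peaks that also overlapped IgG of the same state, the median HSF2 distance was 257 bp for mitotic and 326 bp for cycling peaks.

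**Figure D3:**
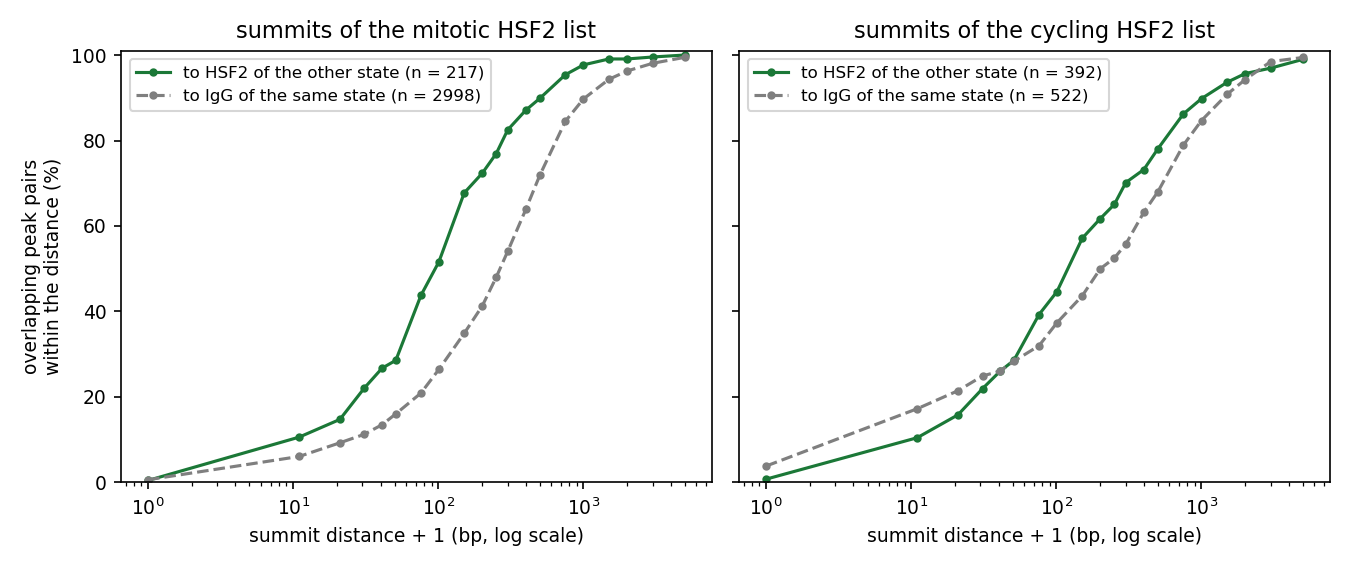
Cumulative share of overlapping peak pairs (vertical axis, %) by distance between summits (horizontal axis, bp plus 1, log scale), for summits of the mitotic list on the left and the cycling list on the right. The solid line is the distance to HSF2 of the other state at peaks with no IgG peak of the same state, and the dashed line the distance to IgG of the same state. At 100 bp the mitotic panel holds 51.6% of HSF2 pairs and 26.5% of IgG pairs, and in the cycling panel the lines cross near 50 bp.

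Shared peaks with close summits overlapped cycling HSF1 more often than those with summits over 250 and up to 1000 bp apart. At mitotic peaks without mitotic IgG whose cycling HSF2 summit lay within 50 bp, 56 of 62 (90.3%, 80.5 to 95.5) overlapped a cycling HSF1 peak after heat and 36 (58.1%, 45.7 to 69.5) a mitotic HSF1 peak. At distances over 250 and up to 1000 bp, 21 of 45 (46.7%, 32.9 to 60.9) overlapped cycling HSF1 and 9 (20.0%, 10.9 to 33.8) mitotic HSF1. The 5 mitotic peaks with summits farther apart overlapped cycling HSF1 at 4. Seen from the cycling list, the peaks with a mitotic summit within 50 bp overlapped cycling HSF1 at 93 of 112 (83.04%), and the 40 pairs with summits over 1000 bp apart at 11 (27.5%). Mitotic HSF1 did not follow this order in the cycling list, with 68 of 112 (60.7%, 51.5 to 69.3) within 50 bp and 23 of 40 (57.5%, 42.2 to 71.5) over 1000 bp. Of those 40 cycling peaks, 34 (85.0%) overlapped mitotic IgG, their median fold was 1.81, and the mitotic peak was wide, with a median of 4090 bp.

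At shared sites the HSF2 level was lower in mitotic cells. Levels are CPM over each library's own peak, and peaks of the 2 lists differ in width. Overlap with IgG was judged at the peak of the list the sites were taken from, not at its partner. At the 201 mitotic peaks free of IgG in both states, the median level was 0.848 CPM in mitotic cells and 1.69 CPM in cycling cells. The median log2 ratio of mitotic to cycling CPM was −1.07 (quartiles −1.72 and −0.31), a ratio of 0.476. It was below 0 at 170 of the 201 (84.6%). The exact 95% counting interval of the ratio lay wholly below 1 at 116 (57.7%) and wholly above 1 at 1 (0.498%), and held 1 at 84. Where sites were taken from the cycling list, 207 peaks free of IgG in both states gave a median log2 ratio of −0.95, with the interval below 1 at 110 (53.1%) and above 1 at 8 (3.86%). The direction was the same from either list. Overlap pairs the same peaks from both ends, so the 2 lists do not check each other independently.

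The median log2 ratio from the cycling list depended on which IgG peaks were set apart. With only IgG of the same state set apart it was −1.01 over 217 mitotic peaks and −0.45 over 392 cycling peaks, of which 185 (47.2%) overlapped mitotic IgG. At HSF2 peaks with IgG peaks of both states it was 0.56 over 240 mitotic and 0.57 over 232 cycling peaks. IgG itself, at its 1111 mitotic peaks with a cycling IgG peak, had a median log2 ratio of mitotic to cycling CPM of 0.62. Peak width also moved the values. Per kb of peak, the median was −0.76 over the 201 mitotic peaks free of IgG, with 198 of them below 0, and −0.67 over the 207 cycling peaks, with 201 below 0. At peaks with IgG of both states it was −0.013 over the 240 mitotic and 0.011 over the 232 cycling peaks per kb, so the higher mitotic level there was not seen once width was counted. In these 240 pairs the median peak was 2164 bp wide in the mitotic list and 1401 bp in the cycling list. With summits within 100 bp and no IgG of either state it was −1.32 over 108 mitotic peaks and −1.28 over 109 cycling peaks.

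**Figure D4:**
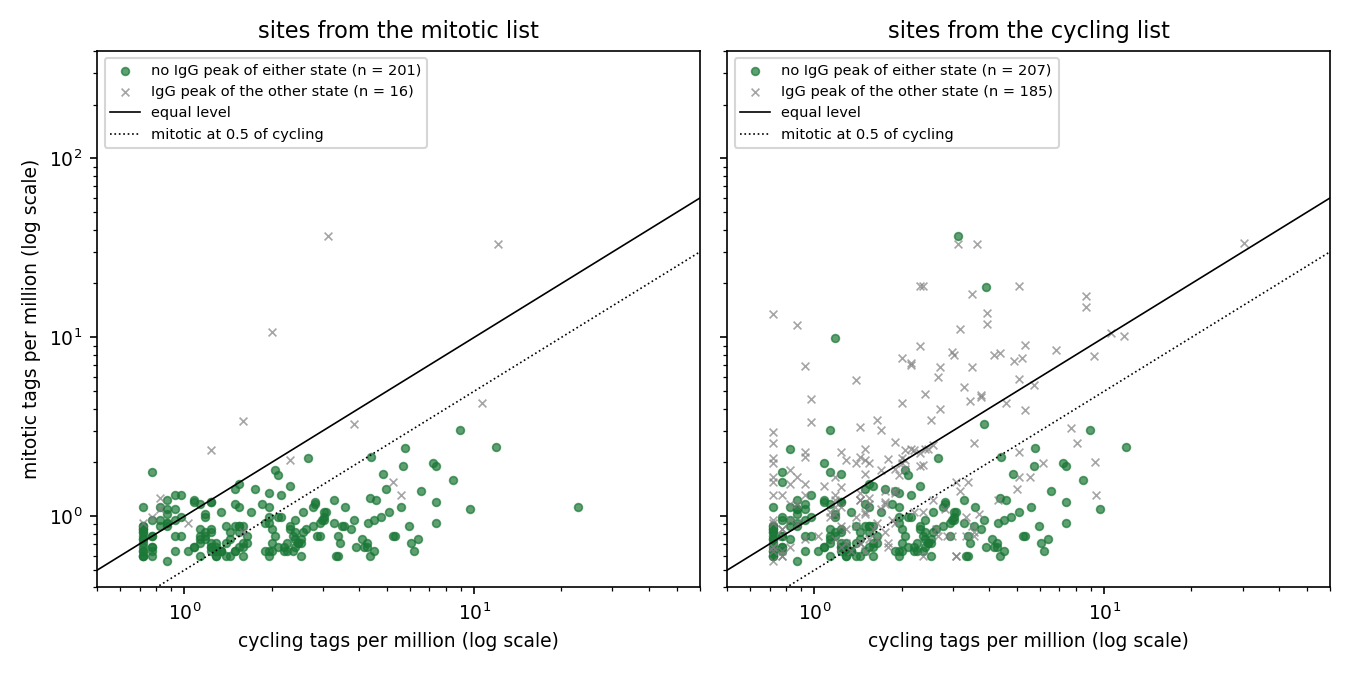
Mitotic level (vertical axis) against cycling level (horizontal axis) of HSF2 in tags per 1000000 kept tags, both on log scales, at shared sites taken from the mitotic list (left) and the cycling list (right), with no IgG peak of the state the sites were taken from. The solid line marks equal levels and the dotted line a mitotic level at 0.5 times the cycling one. IgG overlap was judged at the peak of the list the sites were taken from. Of the green points, with no IgG peak of either state, 170 of 201 on the left and 166 of 207 on the right lie below the solid line. The 185 grey crosses on the right have a mitotic IgG peak.

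The 10 shared peaks of most tags without IgG of the same state fell into regions of low fold and narrow peaks of higher fold. Among the mitotic ones, chr22:20780052-20797730 spanned 17679 bp and held 1046 mitotic tags (37.0 CPM, fold 3.28), against 61 tags (3.13 CPM, fold 1.80) in a cycling peak with its summit 1461 bp away. The other low-fold mitotic regions of the 10 were chr4:191007646-191014199, chr22:19741422-19746993, chr1:9838-10689, chr4:9216326-9219173, chr1:16901108-16903391 and chr15:102505943-102507879. Folds lay between 2.27 and 3.75, and each of these 7 overlapped a cycling IgG peak. The other 3 of the 10 had no peak in either heat-treated IgG list. At chr7:157937299-157938635 the mitotic peak held 86 tags (3.04 CPM), against 174 (8.93 CPM) in the cycling peak, with summits 1 bp apart. At chr16:89227304-89228441 it held 69 tags (2.44 CPM, fold 13.7), against 231 (11.9 CPM, fold 54.0). The last, chr11:122932389-122933522, lies at HSPA8 and is given with the heat shock genes.

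From the cycling list, 5 of the 10 shared peaks of most tags were broad, with folds between 1.45 and 1.78. They were on chromosomes 21 and 22 and overlapped mitotic IgG, with mitotic to cycling ratios between 0.854 and 1.71. The other 5 had folds between 13.7 and 54.0 and ratios between 0.113 and 0.340. At chr19:5863641-5865954, with no IgG peak of either state, mitotic cells held 31 tags (1.10 CPM) and cycling cells 189 tags (9.70 CPM), a ratio of 0.113. At chr11:286877-288376 mitotic cells held 57 tags (2.01 CPM) and cycling cells 181 tags (9.29 CPM), with a mitotic IgG peak of 0.779 CPM. At all 5 of these narrower sites the mitotic level was below the cycling one.

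Ratios were also ranked among shared sites with at least 20 tags in both lists and no IgG peak of either state at the peak taken. The partner peak was not screened for IgG. Low ratios taken from the cycling list were at chr19:5863641-5865954 (0.113), chr18:74827169-74828592 (0.116), chr3:171811395-171812518 (0.117) and chr19:2677736-2678839 (0.146). At the chromosome 18 site mitotic cells had 21 tags (0.742 CPM) and cycling cells 125 tags (6.42 CPM). At the chromosome 3 site they had 20 tags (0.707 CPM) and 118 tags (6.06 CPM). The mitotic list gave the same first 3 regions after a peak at chr6:31785910-31786927 (ratio 0.0497). Its summit lies 3584 bp from that of the cycling peak of 443 tags it was paired with. That cycling peak is the one at HSPA1A and overlaps IgG peaks of both states. The highest ratios taken from the mitotic list stayed near 1: chr16:16427053-16428037 had 1.15, with 35 mitotic tags (1.24 CPM) and 21 cycling tags (1.08 CPM), and the next 4 lay between 0.975 and 1.11. Those taken from the cycling list were higher, at 11.8, 8.38 and 4.90 for 3 sites on chromosome 22, with summits 1461 to 5727 bp from the wide mitotic peak, and 2.69 and 1.84 for sites on chromosomes 4 and 17. The mitotic partner at the ratio of 11.8 overlapped a cycling IgG peak. The mitotic partners at 8.38, 4.90 and 2.69 held 280, 541 and 86 tags and overlapped mitotic IgG peaks.

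Peaks of 1 state alone made up most of both lists and differed between the states in the company they kept. Of the 5055 mitotic peaks without mitotic IgG or a cycling HSF2 peak, 85.9% overlapped no peak of any other list. Cycling HSF1 after heat had a peak at 1.503% of them (1.20 to 1.88) and mitotic HSF1 after heat at 1.46%. Of the 3401 cycling peaks without cycling IgG or a mitotic HSF2 peak, 44.2% overlapped no other list. The other lists are not the same for the 2 classes, because IgG of the same state was left out of each by selection. The long mitotic IgG list had a peak at 11.9% of the cycling-alone peaks, and cycling IgG at 0.890% of the mitotic-alone ones. Cycling HSF1 had a peak at 43.4% of the cycling-alone peaks (41.7 to 45.0), and mitotic HSF1 at 8.20% (7.33 to 9.18). At shared peaks without IgG of the same state, cycling HSF1 had a peak at 78.3% of the 217 mitotic and 66.3% of the 392 cycling ones, and mitotic HSF1 at 41.9% and 47.2%.

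HSF2 of non-treated mitotic cells, a list of 19866 peaks, had a peak at 7.77% of the mitotic-alone and 7.23% of the cycling-alone peaks, and at 23.04% of the shared mitotic and 37.2% of the shared cycling ones. HSF2 of non-treated cycling cells, with 875 peaks, was at 0.317%, 1.47%, 9.68% and 11.99% of the same classes. IgG of non-treated cycling cells stood at 3.42% of mitotic-alone and 4.68% of cycling-alone peaks. The lists differ in length, so these shares describe each list and are not ranked against each other.

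Mitotic peaks found in that state alone sat close to the detection limit. Their median was 20 tags (0.707 CPM), a fold of 3.87 and a score of 56.7, and 3132 of 5055 (62.0%) had a score under 60. Cycling-alone peaks had a median of 18 tags (0.924 CPM), a fold of 3.49 and a score of 71.9, and 826 of 3401 (24.3%) were under 60. Shared mitotic peaks without IgG had a median of 24 tags (0.848 CPM) and shared cycling ones 34 tags (1.75 CPM, score 110).

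The smallest mitotic peak held 16 tags (0.565 CPM) and the smallest cycling peak 14 (0.719 CPM), and tags at sites without a peak are not listed. A site with the median ratio of 0.476 would need more than 1.19 CPM in cycling cells to reach the smallest mitotic peak. Of the 3401 cycling-alone peaks, 1075 (31.6%) exceeded that level and 2326 (68.4%) did not. At most cycling-alone sites, a mitotic level at that ratio would therefore not exceed the smallest mitotic peak. The same does not hold in the other direction. At that ratio the smallest mitotic peak would match 1.19 CPM in cycling cells, above the smallest cycling peak of 0.719 CPM. Why peaks of either class had no counterpart was not tested. Unshared peaks rarely had a near neighbour: a summit of the other list lay within 1000 bp of 12 of the 5055 mitotic-alone peaks (0.237%) and of 15 of the 3401 cycling-alone ones (0.441%).

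The 5 mitotic-alone peaks of most tags were broad regions of low fold, 4 of them on chromosome 22 and 1 on chromosome 1. The largest, chr22:22031063-22046834, held 1062 tags (37.5 CPM, fold 3.17), and cycling IgG had 16.3 CPM there. The 5 cycling-alone peaks of most tags also had low folds, between 1.4 and 3.09, on chromosomes 1, 9, 22 and Y. The largest, chrY:10020362-10030301, held 1511 tags (77.6 CPM, fold 1.99), and mitotic IgG had 112 CPM there. K562 is known to carry amplified segments of chromosomes 9 and 22 that include the BCR-ABL1 fusion. Their part in the broad peaks was not tested.

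By fold rather than tags, a choice made after the values were seen, the strongest mitotic-alone peak free of IgG was chr1:221229070-221230129, with 75 tags (2.65 CPM, 2.08 to 3.32, fold 19) and no overlap with any cycling HSF2, heat-treated HSF1 or IgG peak. The next mitotic fold was 9.33. The strongest cycling-alone ones were chr19:2679076-2680187 with 123 tags (6.32 CPM, 5.25 to 7.54, fold 29.7), chr12:655863-656896 with 76 tags (3.90 CPM), chr19:4762695-4763882 with 86 tags (4.42 CPM), chr2:113463675-113464641 with 83 tags (4.26 CPM) and chr19:54691691-54692731 with 68 tags (3.49 CPM). All 5 had HSF1 peaks of both states after heat, at 1.35 to 2.98 CPM in mitotic cells and 4.36 to 7.05 CPM in cycling cells. At these 5 sites HSF2 was listed in cycling cells and not in mitotic cells, while HSF1 was listed in both. The mitotic HSF1 peaks there held 10 to 22 tags at folds of 2.17 to 5.63. The mitotic HSF1 list starts at 9 tags and the mitotic HSF2 list at 16, from 7385467 and 28299989 kept tags. The contrast is therefore not read as a difference between the factors.

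Peaks with an IgG peak of the same state carried the most tags. The peak of most tags in both lists, chr1:564185-570641 in the mitotic and chr1:563922-570689 in the cycling list, held 21049 tags (744 CPM, fold 1.29) and 9717 tags (499 CPM, fold 1.30), and IgG had 1161 CPM and 679 CPM there. The next mitotic ones were chr21:9825275-9828536 (97.9 CPM, IgG 224) and chr1:143276759-143284647 (81.4 CPM, IgG 104). The next cycling ones were chr5:134258511-134264716 (314 CPM, IgG 421) and chr5:9838-12305 (112 CPM, IgG 73.9). At 4 of these 5 distinct regions IgG exceeded HSF2 of the same state.

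Chromosome 1 held 17.1% of mitotic and 14.1% of cycling peaks, and chromosome 7 held 11.3% of mitotic and 8.09% of cycling peaks. Chromosome 22 held 4.39% and 5.08%, and 86.8% of its mitotic peaks and 39.7% of its cycling peaks overlapped IgG of the same state, against 36.3% and 12.1% over all chromosomes. Of the cycling peaks without cycling IgG, 26.5% on chromosome 22 and 25.5% on chromosome 21 had a mitotic counterpart, against 10.3% over all.

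At most of the gene regions examined, those of heat shock genes and of MRPS6 and KMT2A, HSF2 was found in both states. The regions were chosen after their values were seen. No hg19 annotation was used, so gene names rest on the well-known hg19 positions of these genes and serve as background. As a check within the data, summits at the HSPA1A and HSPA1B regions lay 12174 bp apart in the mitotic and 12176 bp apart in the cycling list, and the RefSeq starts of these genes lie 12195 bp apart in GRCh38.p14. Of 18 regions, 17 had an overlapping pair of HSF2 peaks. Over all peaks, 7.61% of mitotic and 14.9% of cycling ones had a counterpart. Because the regions were chosen with their peaks known, the count of 17 is not read as a result. The median summit distance was 51 bp, and 15 pairs lay within 100 bp. The ratio of mitotic to cycling CPM was below 1 at 16 of the 17, with a median of 0.345, and its counting interval lay below 1 at 11 (64.7%) and held 1 at 6. Over all 201 shared mitotic peaks free of IgG in both states these shares were 84.6% below 1 and 57.7% with the interval below 1, so nothing particular to these regions is read from their counts. Per kb the ratio was below 1 at all 17, with a median of 0.418 and the interval below 1 at 14. Mitotic IgG overlapped 7 of the mitotic peaks, and cycling IgG 2 of the cycling ones.

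The HSP70 genes encode chaperones that refold proteins. HSPA1A, whose promoter is printed above, had 155 mitotic tags (5.48 CPM, 4.65 to 6.41) and 443 cycling tags (22.7 CPM, 20.7 to 24.97), a ratio of 0.241 (0.199 to 0.290). Per kb the ratio was 0.448 (0.371 to 0.539). The wider cycling peak also spans the mitotic peak of 32 tags at chr6:31785910-31786927, which these ratios leave out. HSPA1B had 205 mitotic tags (7.24 CPM) and 409 cycling tags (21 CPM), a ratio of 0.345. IgG had peaks of 4.62 to 5.42 CPM at both genes in both states, and reads of these near-identical copies may be split between them. HSPA8, free of IgG, had 68 mitotic tags (2.40 CPM, 1.87 to 3.05) and 112 cycling tags (5.75 CPM, 4.74 to 6.92), a ratio of 0.418 (0.304 to 0.570). HSPA6, an inducible member with 3 repeats in a row in its promoter, had 36 cycling tags (1.85 CPM) and no mitotic peak. HSPH1, an HSP110 nucleotide exchange factor, had 27 mitotic tags (0.954 CPM) and 75 cycling tags (3.85 CPM). Its relative HSPA4L had 17 mitotic tags (0.601 CPM) and 22 cycling tags (1.13 CPM), with an interval of the ratio that held 1.

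The chaperonins are ring-shaped folding machines, mitochondrial for HSPD1 with its partner HSPE1, and cytosolic for TCP1 and CCT5. The region shared by HSPD1 and HSPE1 had 56 mitotic tags (1.98 CPM) and 140 cycling tags (7.19 CPM), a ratio of 0.275 (0.198 to 0.378). The region of TCP1 and MRPL18 had 56 mitotic tags (1.98 CPM), with mitotic IgG at 1.06 CPM, and 120 cycling tags (6.16 CPM). CCT5 had 39 mitotic tags (1.38 CPM) and 128 cycling tags (6.57 CPM), a ratio of 0.210, and of 0.394 (0.268 to 0.568) per kb.

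The cytosolic HSP90 genes had different ratios over whole peaks and closer ones per kb. HSP90AA1, the inducible form, had 40 mitotic tags (1.41 CPM, 1.01 to 1.92) and 29 cycling tags (1.49 CPM, 0.997 to 2.14), a ratio of 0.949 (0.574 to 1.59). HSP90AB1, the constitutive form, had 37 mitotic tags (1.31 CPM) and 183 cycling tags (9.40 CPM), a ratio of 0.139 (0.0950 to 0.199), with mitotic IgG at 1.72 CPM. The HSP90AB1 region held 2 mitotic peaks and 1 cycling peak, and its ratios leave 1 of the mitotic peaks out. The HSP90AA1 peaks were 1137 bp wide in mitotic and 509 bp in cycling cells, and the HSP90AB1 peaks 996 bp and 2335 bp. Per kb the ratios were 0.425 (0.257 to 0.711) at HSP90AA1 and 0.326 (0.223 to 0.466) at HSP90AB1, with intervals that overlap. STIP1, an adaptor between HSP70 and HSP90, had 34 mitotic tags (1.20 CPM) and 144 cycling tags (7.39 CPM), a ratio of 0.162. Per kb the STIP1 ratio was 0.273 (0.182 to 0.400).

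J-domain proteins hand clients to HSP70. DNAJB1 had 33 mitotic tags (1.17 CPM) and 22 cycling tags (1.13 CPM), a ratio of 1.03 (0.584 to 1.86), and DNAJB6 had 73 mitotic tags (2.58 CPM) and 69 cycling tags (3.54 CPM), a ratio of 0.728 (0.517 to 1.03). At these 2 genes the levels over whole peaks did not differ beyond counting error. Per kb the ratio was 0.916 (0.518 to 1.65) at DNAJB1 and 0.453 (0.321 to 0.639) at DNAJB6. Mitotic IgG had a peak of 1.28 CPM at DNAJB6. Among other known targets, SERPINH1, which encodes a collagen chaperone, had 18 mitotic tags (0.636 CPM) and 43 cycling tags (2.21 CPM). BAG3, an HSP70 co-chaperone, had 25 mitotic tags (0.883 CPM) and 31 cycling tags (1.59 CPM), a ratio of 0.555 (0.314 to 0.971). The BAG3 peaks were 929 bp wide in mitotic and 410 bp in cycling cells, and per kb the ratio was 0.245 (0.139 to 0.429).

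At MRPS6, a mitochondrial ribosomal protein gene, and KMT2A, a histone methyltransferase gene, the counting interval of the ratio held 1. MRPS6 had 38 mitotic tags (1.34 CPM) and 37 cycling tags (1.90 CPM), a ratio of 0.707 (0.437 to 1.14). KMT2A had 52 mitotic tags (1.84 CPM) and 37 cycling tags (1.90 CPM), a ratio of 0.967 (0.622 to 1.52), and no HSF1 peak of either state after heat. Its peaks were 751 bp wide in mitotic and 429 bp in cycling cells, and per kb the ratio was 0.553 (0.356 to 0.866). Mitotic IgG had peaks of 0.779 CPM at MRPS6 and 0.723 CPM at KMT2A, below the mitotic HSF2 level at both.

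**Figure D5:**
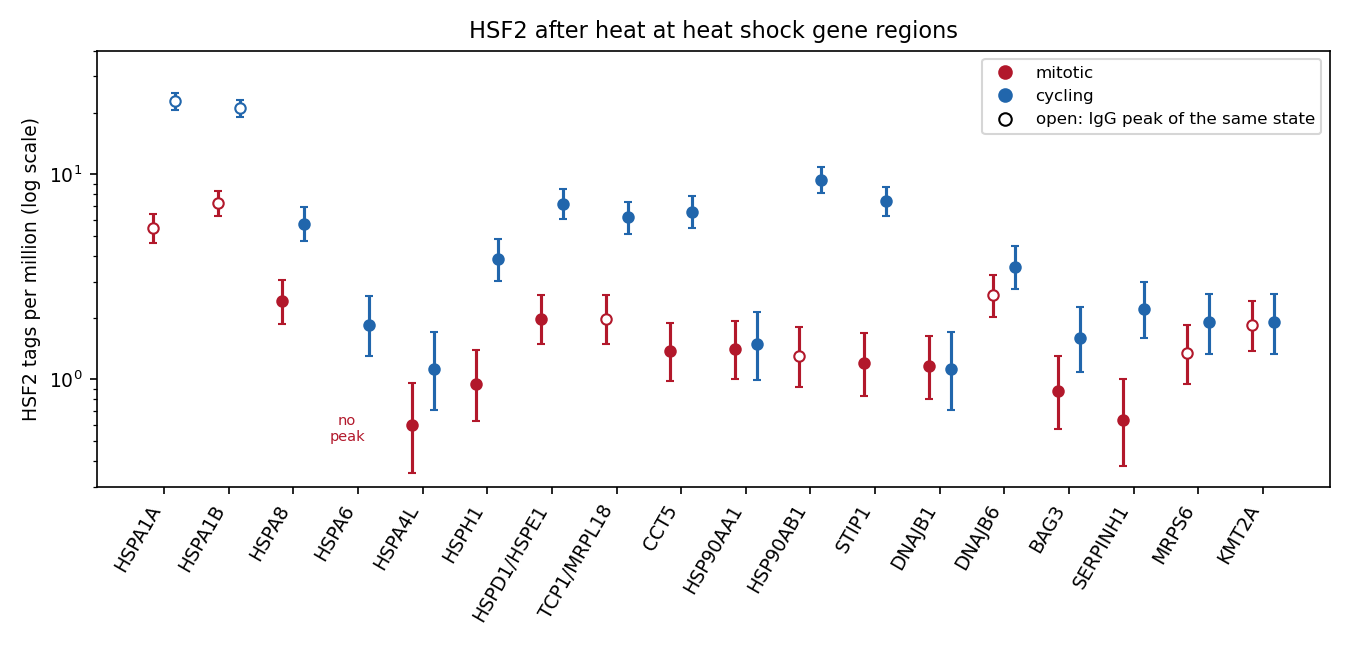
HSF2 level after heat (vertical axis, tags per 1000000 kept tags, log scale) at 18 gene regions, mitotic in red to the left of cycling in blue at each region, with exact 95% Poisson intervals. The regions are those of heat shock genes and of MRPS6 and KMT2A. Open circles mark peaks that overlap an IgG peak of the same state, and HSPA6 has no mitotic peak. Mitotic points lie below cycling ones at 16 of 17 regions with a peak in both states, and near them at HSP90AA1, DNAJB1 and KMT2A.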

How the data were processed

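Tag alignments (Bowtie, build hg19) were made by the authors, and peaks were called with MACS against the input of the same cell state, per the submitters' processing notes. The version was 1.4.1 per the file headers. The deposited lists give tag counts per peak, a fold ratio over input, a score, 10 times the negative log10 of the p-value (calls at 1e-05) and an FDR in percent. Chromosome names given as GenBank accessions in some lists were translated. From these, overlaps (at least 1 bp), summit distances and tags per 1000000 kept tags (CPM, kept tags from the header) were computed with Python 3.11.15, pandas 2.3.3 and scipy 1.17.1. The nearest summit chose the partner among several. Shares have 95% Wilson intervals, ratios exact conditional binomial intervals and CPM exact Poisson intervals. The caller kept at most 2 tags per position in the HSF2 and IgG lists of heat-treated cells and in cycling HSF1, and 1 in mitotic HSF1, per the file headers. Code was checked on simulated lists and against bedtools 2.31.1. Sites named were, without IgG of the same state, the 10 shared and 5 unshared peaks of most tags per list, the 3 of most tags with IgG, and the 5 highest and 5 lowest ratios with at least 20 tags in both lists. The members and lists were chosen with earlier results of these data known. Alternatives are given in the closing section. The input libraries have no list and are not analysed here beyond their use by the caller. 1 of the sites of lowest ratio is not reported here.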

Additional observations from a re-analysis of the deposited data

How the results depend on the processing

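No paired analysis was possible because each group has 1 library. The shares with a counterpart, 4.12% of mitotic and 10.3% of cycling peaks without IgG of the same state, were 3.32% and 7.20% with 50% reciprocal overlap, 3.17% and 6.72% with summits within 250 bp, and 2.12% and 4.61% with summits within 100 bp. They were 17.1% and 18.5% at a score of at least 100, 16.1% and 19.8% at a fold of at least 5, 3.15% and 10.3% at an FDR of at most 5%, and 6.28% and 7.70% with lists shortened by score to equal length. With IgG not set apart they were 7.61% and 14.9%, with IgG set apart only at summits within 250 bp 6.25% and 13.1%, and with IgG of either state set apart 3.86% and 6.46%. Chosen after seeing the data, leaving out peaks of 3 kb or wider gave 4.03% and 9.37%, and shortening the mitotic IgG list to the length of the cycling one gave 4.95% of mitotic peaks. The cycling share exceeded the mitotic one under each setting run for both. Both shares count overlaps of the same 2 lists, of which the cycling one is shorter. With lists of equal length, 2231 mitotic and 3793 cycling peaks were left without IgG of the same state. The order of the shares is therefore not read as a difference in binding.

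The median log2 ratio stayed below 0 under 16 of 17 alternatives. From the mitotic list (−1.01) it was −0.70 per kb, −1.23 with summits within 250 bp, −1.28 with at least 20 tags in both peaks, −0.037 with IgG not set apart and −0.69 with the shortened mitotic IgG list. From the cycling list (−0.45) it was −0.80 with reciprocal overlap, −0.95 with summits within 250 bp, −0.95 with IgG of either state set apart, and reversed to 0.046 with IgG not set apart. The cause was not tested. From the mitotic list (95 bp) the median summit distance was 72 bp with reciprocal overlap and 143 bp with IgG not set apart. From the cycling list (126 bp) it was 69 bp and 149 bp, and 90 bp with IgG of either state set apart. At the named gene regions the per-kb ratio, chosen after seeing the data, put the interval below 1 at 14 of 17, against 11 over whole peaks. The smallest mitotic peak holds 16 tags and the smallest cycling one 14, and lower levels are not listed.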
